A study of Mus musculus with 2 samples.

Results

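The mTOR kinase, its complex partners and the proteins that restrain it were followed through 10 genes: Mtor, Rptor, Rictor, Tsc1, Tsc2, Ddit4, Deptor, Sesn1, Sesn2 and Sesn3. They were chosen by name, and all 10 were found by Ensembl identifier among the 35275 genes of the count table. The libraries came from AML12 cells without treatment (control) and from AML12 cells brought into premature senescence with hydrogen peroxide (senescent). Each condition had 1 RNAseq library, for which RNA of 3 samples had been pooled. AML12 is a non-transformed mouse hepatocyte line that carries a human TGF-alpha transgene, and the labels give strain CD-1, liver, male and an age of 3 months for both libraries. Peroxide was given on 6 days for 1 h, first at 1 mM and then at 0.75 mM, each time with 23 h of recovery. The exposures were in serum-free medium, and recovery was in complete medium with serum, the ITS supplement and dexamethasone. Whether control cells had the same medium changes is not given in the sources used here. Peroxide and the medium changes can therefore not be told apart. A single line stands for hepatocytes here, and the pooling removed any view of the spread between cultures.

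mTOR is a serine/threonine kinase that works in 2 complexes. In mTORC1 it is joined by Raptor (Rptor) and drives protein synthesis while it holds back autophagy, and in mTORC2 it is joined by Rictor and phosphorylates kinases of the Akt family. The small GTPase Rheb switches mTORC1 on, the TSC1-TSC2 complex switches Rheb off, DDIT4 (REDD1) acts through TSC, DEPTOR binds the kinase itself, and the sestrins hold mTORC1 back through GATOR2 and AMPK. Amino acids act on the same complex through the Rag GTPases at the lysosome, and in the liver this pathway ties feeding to growth and to autophagy.

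The control library held 28021941 counted reads and the senescent library 25738075. Levels are given as CPM, the count relative to the library size, after TMM scaling, and each ratio as log2 of the senescent over the control level, with a prior count of 1 added. Brackets hold the 95% Clopper-Pearson interval, which covers counting error only. Reads carried no molecular identifier, so several may be PCR copies of 1 molecule. The words rose and fell are kept for genes with a log2 ratio past 1.5 in either direction, an interval that leaves out 0 and 10 or more reads in the libraries together. With 1 library per condition no test was possible, no p-value is given, and each ratio compares these libraries and not the conditions. In bulk RNA, fewer cells that express a gene and less of its RNA per cell cannot be told apart.

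Hepatocyte markers were present in both libraries, with Hnf4a at 8187 control and 7705 senescent reads and Krt8 at 119403 and 144783 reads. Of the 10 hepatocyte markers, 2 rose and 2 fell. Albumin (Alb) fell from 32076 to 2917 reads and Apoa1 from 2026 to 197, while Cps1 (19 and 55 reads) and Cyp2e1 (0 and 50 reads) rose. Ttr stood at -0.91 and Serpina1a at -1.42 on the log2 scale. The summed level of the 10 was 7756 CPM in control and 9162 CPM in senescent cells, of which the keratins Krt8 (4106 and 5838 CPM) and Krt18 (1393 and 2457 CPM) made up most. The 6 macrophage markers summed to 2.65 and 6.29 CPM. Of these, Ptprc (27 and 76 reads, log2 ratio 1.68) and Csf1r (15 and 40 reads, log2 ratio 1.58) rose, and Adgre1 and Clec4f were at 0 in both libraries. The 6 fibroblast and stellate cell markers summed to 0.722 and 0.282 CPM, with Col1a2, Acta2 and Lum at 0 in both, and no endothelial marker reached 10 reads. Of the senescence checks, Cdkn1a had a log2 ratio of 0.90 [0.86, 0.95] and Cdkn2a one of -1.32 [-1.60, -1.05], and neither passed 1.5. The part of these shifts in the values given next was not tested.

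Of the 10 genes, 3 fell past the threshold in the senescent library and 0 rose. Those that fell were Ddit4, Deptor and Sesn3, each a gene whose product restrains mTORC1. Most of the 10 genes have such a product, so this role does not set the genes that fell apart. Sesn1 (-0.97), Tsc1 (0.02), Tsc2 (0.28) and Sesn2 (0.86) also encode restrainers and did not pass the threshold. Among all 14383 genes tested, 5.60% fell and 2.71% rose. The same 3 and 0 genes passed a threshold of 1, where 9.98% of all genes were lower and 5.09% higher. The study had placed Ddit4, Deptor and Sesn3 in a lowered term of negative regulators of TOR signaling drawn from these samples, so their direction is not independent evidence. The other 7 genes had a median log2 ratio of 0.28 and none passed the threshold. Both values follow in part from setting apart the genes with the lowest ratios, and they are a description only. Over all 10 the median was 0.11, beside -0.02 for all genes tested.

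**Figure D1:**
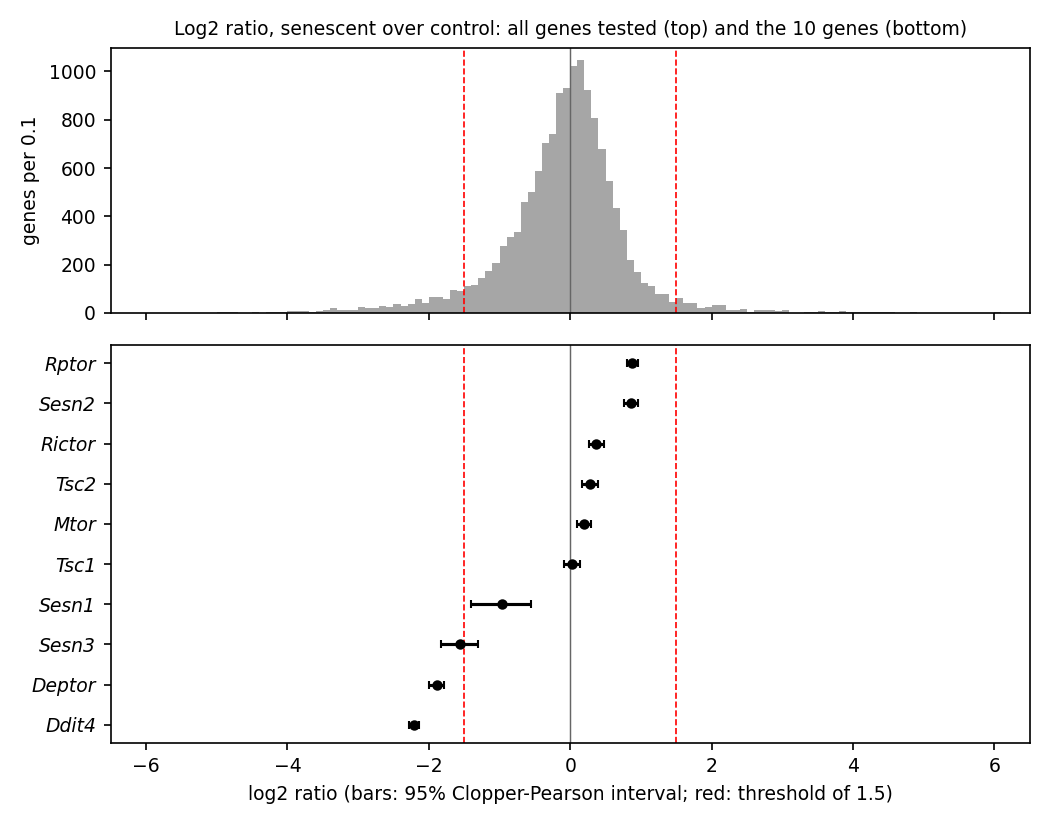
Log2 ratio of the senescent over the control library for each of the 10 genes, with its 95% counting interval as a bar, under a histogram of all 14383 genes tested on the same axis. Ddit4 (-2.21), Deptor (-1.89) and Sesn3 (-1.56) lie below the threshold of -1.5, and Rptor (0.88) and Sesn2 (0.86) are the highest of the 10.

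The kinase and the scaffolds of its complexes were measured with 1460 or more reads in each library. Mtor (ENSMUSG00000028991, GRCm38 chr4:148448611-148557683, plus strand) had 1743 reads in control and 1697 in senescent cells, or 59.9 and 68.4 CPM. Its log2 ratio was 0.19 [0.09, 0.29], a 1.14-fold difference between the libraries. With total-count scaling the ratio was 0.08 [-0.01, 0.18], with an interval that holds 0.

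Raptor, the scaffold that brings substrates to mTORC1, had the highest ratio of the 10. Rptor (ENSMUSG00000025583, chr11:119602905-119899576, plus strand) was read 1991 times in control and 3121 times in senescent cells, which is 68.5 and 126 CPM. This is a 1.84-fold higher level and a log2 ratio of 0.88 [0.80, 0.96], under the threshold, with 7.41% of all genes tested higher still. Rictor, which defines mTORC2 (ENSMUSG00000050310, chr15:6708379-6800401, plus strand), had 1460 and 1609 reads, or 50.2 and 64.9 CPM, with a log2 ratio of 0.37 [0.27, 0.47].

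Ratios between genes of the same library do not depend on scaling, and 11 such pairs were compared with exact conditional intervals. Per Mtor read there were 1.14 Rptor reads in control and 1.84 in senescent cells, a log2 difference of 0.69 [0.56, 0.81]. For Rictor the same figure went from 0.838 to 0.948 reads per Mtor read, a log2 difference of 0.18 [0.04, 0.32]. Rptor exceeded Rictor in its ratio by 0.51 [0.38, 0.64] on the log2 scale. The mTORC1 scaffold was therefore higher relative to both the kinase and the mTORC2 scaffold, beyond counting error in these libraries. Of the 11 genes tested in the list of mTORC1 and mTORC2 subunits, 0 rose and 1, Deptor, fell, and the median log2 ratio was 0.19. Akt1s1 (PRAS40), an mTORC1 inhibitor and the subunit with the most reads summed over both libraries, had 3142 control and 3528 senescent reads and a log2 ratio of 0.40.

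Neither part of the TSC1-TSC2 brake on Rheb had a ratio near the threshold. Tsc1 (ENSMUSG00000026812, chr2:28641228-28691167, plus strand), which stabilises its partner, had 1305 and 1130 reads, or 44.9 CPM in control and 45.6 CPM in senescent cells. The log2 ratio of 0.02 [-0.09, 0.14] has an interval that holds 0, and it became -0.09 with total-count and -0.02 with upper-quartile scaling. Total-count scaling moved the median of all genes by -0.11, and Tsc1 was the only one of the 10 to change sign under another scaling or prior count. Tsc2 (ENSMUSG00000002496, chr17:24595816-24632630, minus strand), which carries the GTPase-activating domain, had 1160 control and 1203 senescent reads, or 39.9 and 48.5 CPM, with a log2 ratio of 0.28 [0.16, 0.40].

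Tsc2 shares 693 exon bases, or 7.20% of its exon length, with Pkd1 on the opposite strand, and Pkd1 had 2420 and 3027 reads and a log2 ratio of 0.55 [0.47, 0.63]. Use of strand in the counting is not given in the sources used here, so the split of reads over the shared bases is uncertain. Of the 50-base words in Tsc2 exons, 8.14% also occur in another gene on either strand, and the overlap with Pkd1 can count in this share. The count of Tsc2 reads per Tsc1 read was 0.889 in control and 1.06 in senescent cells, a log2 difference of 0.26 [0.09, 0.43]. Of the 5 genes in the list of the TSC complex and Rheb, 0 passed 1.5 in either direction. Rheb itself had 3310 and 3093 reads and a log2 ratio of 0.13. Tbc1d7, the third TSC subunit, stood at -0.47 [-0.76, -0.19], and Rhebl1, a paralog of Rheb, at 1.20 [0.90, 1.51] from 138 and 271 reads.

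Ddit4 and Deptor, inhibitors that act at different points, were both lower in the senescent library. Ddit4 (ENSMUSG00000020108, chr10:59949669-59951834, minus strand), a stress- and glucocorticoid-inducible inhibitor, was the most abundant of the 10 per kilobase. It had 11394 reads in control and 2096 in senescent cells, or 392 and 84.5 CPM. The level fell by 2.21 on the log2 scale, with an interval of [-2.28, -2.15], which is 4.63-fold lower, and 2.48% of all genes tested had a lower ratio.

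Deptor (ENSMUSG00000022419, chr15:55112317-55259271, plus strand), which binds mTOR in both complexes, had 3584 control and 826 senescent reads. Its level went from 123 to 33.3 CPM, a log2 ratio of -1.89 [-1.999, -1.778] or 3.70-fold lower, with 3.73% of all genes lower. Per Mtor read there were 2.06 Deptor reads in control and 0.487 in senescent cells, a log2 difference of -2.08 [-2.23, -1.93]. Against Ddit4, Deptor fell slightly less, by a log2 difference of -0.33 [-0.45, -0.20] for Ddit4 minus Deptor. Deptor shares 303 exon bases, or 3.41% of its exon length, with Gm9920 on the opposite strand. Gm9920 had 67 and 14 reads and a log2 ratio of -1.96 [-2.98, -1.18]. Of the 50-base words in the exons of Deptor, 3.78% also occur in another gene on either strand, and the overlap with Gm9920 can count in this share.

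**Figure D2:**
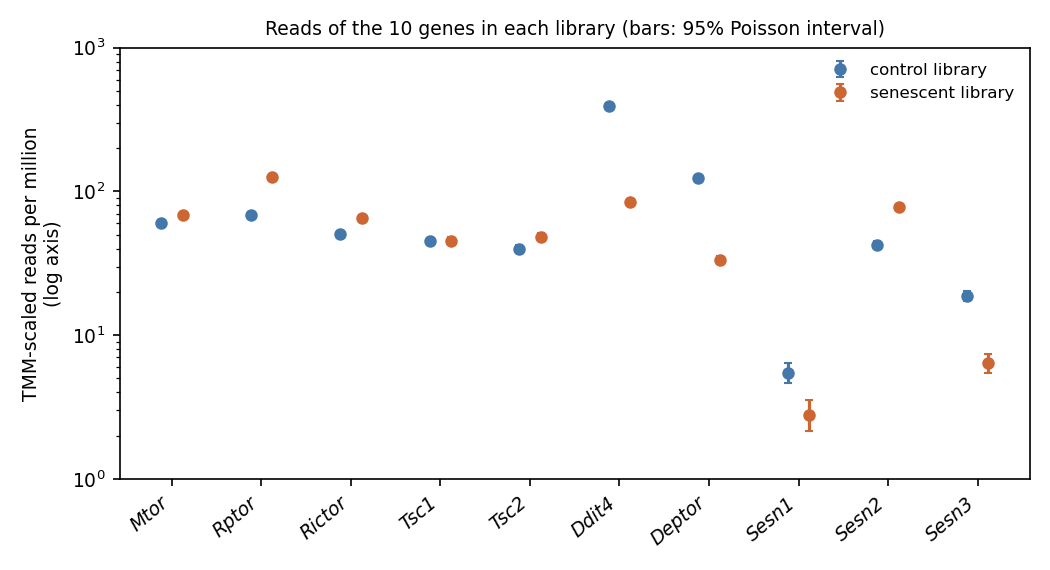
Level of each of the 10 genes in the control and the senescent library in TMM-scaled CPM on a log axis, 1 point per library with its counting interval. Ddit4 goes from 392 to 84.5 CPM and Deptor from 123 to 33.3 CPM, while Rptor goes from 68.5 to 126 CPM and Sesn2 from 42.7 to 77.6 CPM.

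The sestrins, stress-inducible proteins that bind GATOR2, differed in the sign of their ratios. Sesn1 (ENSMUSG00000038332, chr10:41809935-41908424, plus strand), a p53 and FOXO target, had 159 control and 69 senescent reads, or 5.47 and 2.78 CPM. At -0.97 [-1.40, -0.56] its log2 ratio did not pass the threshold. Sesn2 (ENSMUSG00000028893, chr4:132492032-132510501, minus strand), a leucine sensor and an ATF4 target, had 1243 and 1925 reads, or 42.7 and 77.6 CPM. The ratio was 1.82-fold, or 0.86 [0.76, 0.96] on the log2 scale, below the threshold, with 7.73% of all genes higher. Sesn3 (ENSMUSG00000032009, chr9:14275067-14333101, plus strand), a FOXO target, had 547 and 158 reads, or 18.8 and 6.37 CPM. It fell by 1.56 on the log2 scale, with an interval of [-1.83, -1.30] that holds the threshold itself, which is 2.94-fold lower, and 5.40% of all genes tested had a lower ratio. With the interval widened for an assumed coefficient of variation of 0.4 between cultures, it ran from -3.18 to 0.06 and Sesn3 was no longer counted as lower.

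Relative to each other the sestrins separated clearly. Sesn2 minus Sesn3 gave a log2 difference of 2.42 [2.14, 2.71], with 2.27 Sesn2 reads per Sesn3 read in control and 12.2 in senescent cells. Sesn2 minus Sesn1 gave 1.84 [1.40, 2.28], and Sesn1 minus Sesn3 gave 0.59 [0.08, 1.08]. Of all sestrin reads, Sesn2 took 63.8% [61.6, 65.9] in control and 89.5% [88.1, 90.7] in senescent cells by exact binomial intervals. Per kilobase of exon its share was 82.5% and 95.2%, since Sesn3 has the longest exon length of the family. The summed sestrin level was 14.9 in control and 23.5 in senescent cells in RPKM (reads per kilobase of exon, scaled like CPM), so the family total was not lower although Sesn3 fell. Over their coding sequences Sesn1 and Sesn2 are 66.9% identical, Sesn1 and Sesn3 68.4% and Sesn2 and Sesn3 65.3%, and no run of 50 bases is shared between them. Of the 5 sestrin and REDD genes, 0 rose and 2 fell, with a median of -0.97, and Ddit4l, the paralog of Ddit4, stood at 0.81 [0.58, 1.04].

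Ddit4 and Sesn2, both known to respond to stress, differed the most of the 11 pairs picked, with a log2 difference of -3.07 [-3.20, -2.95]. Pairs outside these 11 were not ranked. There were 9.17 Ddit4 reads per Sesn2 read in control and 1.09 in senescent cells. The bases before the start of Ddit4, Sesn2 and Sesn3 are shown because these genes share a role and stress inputs but differ in ratio. Each line holds the 250 bases before the RefSeq start on GRCm38.p6, written 5′ to 3′ on the gene's strand. These starts differ from the GENCODE gene limits given above. The Sesn3 bases lie wholly inside its GENCODE gene, and those of Ddit4 and Sesn2 reach partly into theirs. Capitals mark CCAAT boxes (CCAAT or its complement ATTGG), GC boxes (GGGCGG or its complement CCGCCC) and the HIF core ACGTG, searched on both strands.
Ddit4, chr10:59951771-59952020, minus strand: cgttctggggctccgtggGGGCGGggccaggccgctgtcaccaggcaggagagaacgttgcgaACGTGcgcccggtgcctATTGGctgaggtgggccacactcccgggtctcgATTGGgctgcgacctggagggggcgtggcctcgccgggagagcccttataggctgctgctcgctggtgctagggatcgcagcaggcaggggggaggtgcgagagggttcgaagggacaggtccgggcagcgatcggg
Sesn2, chr4:132510457-132510706, minus strand: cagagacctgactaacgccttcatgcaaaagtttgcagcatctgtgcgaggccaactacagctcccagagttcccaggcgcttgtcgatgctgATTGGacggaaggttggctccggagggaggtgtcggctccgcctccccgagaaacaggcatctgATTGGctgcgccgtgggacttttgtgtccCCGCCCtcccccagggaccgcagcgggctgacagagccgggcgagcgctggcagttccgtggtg
Sesn3, chr9:14276051-14276300, plus strand: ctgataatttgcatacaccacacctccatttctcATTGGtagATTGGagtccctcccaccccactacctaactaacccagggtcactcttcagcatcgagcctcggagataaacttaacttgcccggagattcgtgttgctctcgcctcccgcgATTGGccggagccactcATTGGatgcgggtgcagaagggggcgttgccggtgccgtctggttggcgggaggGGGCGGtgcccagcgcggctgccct

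Counted over windows of 250 bases before to 50 bases after the start, Ddit4 and Sesn2 hold 2 CCAAT boxes each and Sesn3 holds 4. Of the 10 genes, 9 had an entry in the RefSeq promoter table, with 10 windows because Sesn1 has 2 starts, and Deptor had none. A CCAAT box was in 7 of the 10 windows, beside 37.4% of all 32851 promoters, and a GC box was in the same 7, beside 35.7%. Both motifs stood in Mtor and Rictor as well as in Ddit4 and the sestrins, so neither set Ddit4 and Sesn3 apart. Deptor, which also fell, had no window to compare. The HIF core was in Ddit4, 187 bases before the start, and in Rptor, 34 bases before it, beside 19.6% of all promoters. The FOXO motif TGTTTAC, in 3.65% of all promoters, was found only in Sesn1, and the E-box CACGTG, which contains the HIF core, the CRE TGACGTCA, TGATGNAAT and TATAAA were in none of the 10 windows. These matches describe letters in a window and not binding.

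Per kilobase of exon, the order of the 10 levels differed between the libraries. Ddit4 came first in both, at 223 RPKM [219, 227] in control and 48.2 RPKM [46.1, 50.3] in senescent cells, by exact Poisson intervals. Deptor was second in control at 13.9 RPKM [13.4, 14.4] and eighth in senescent cells at 3.75 RPKM [3.50, 4.02], where its interval overlapped those of its neighbours Rictor and Tsc1. Sesn2 moved from the third place at 12.3 RPKM [11.6, 13.0] to the second at 22.3 RPKM [21.3, 23.4], and Rptor from the fifth at 5.08 RPKM to the third at 9.34 RPKM. Mtor held the fourth place in both libraries, at 5.93 and 6.77 RPKM.

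The lower end of the order was the sestrin pair. Sesn1 and Sesn3 overlapped in control, at 1.37 RPKM [1.17, 1.60] and 1.23 RPKM [1.13, 1.34], and were apart in senescent cells, at 0.699 RPKM [0.544, 0.884] and 0.417 RPKM [0.355, 0.488]. Tsc1 and Tsc2 overlapped in control only, at 3.79 and 4.15 RPKM, and Tsc1 and Rictor overlapped in senescent cells only, at 3.85 and 3.83 RPKM. With the length of the longest transcript in place of all exons, 6 places over both libraries differed. By that length Sesn3 was above Sesn1 in control, at 2.06 and 1.44 RPKM. In senescent cells they were close, at 0.698 and 0.730 RPKM, so where the pair stood apart depended on the length used.

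**Figure D3:**
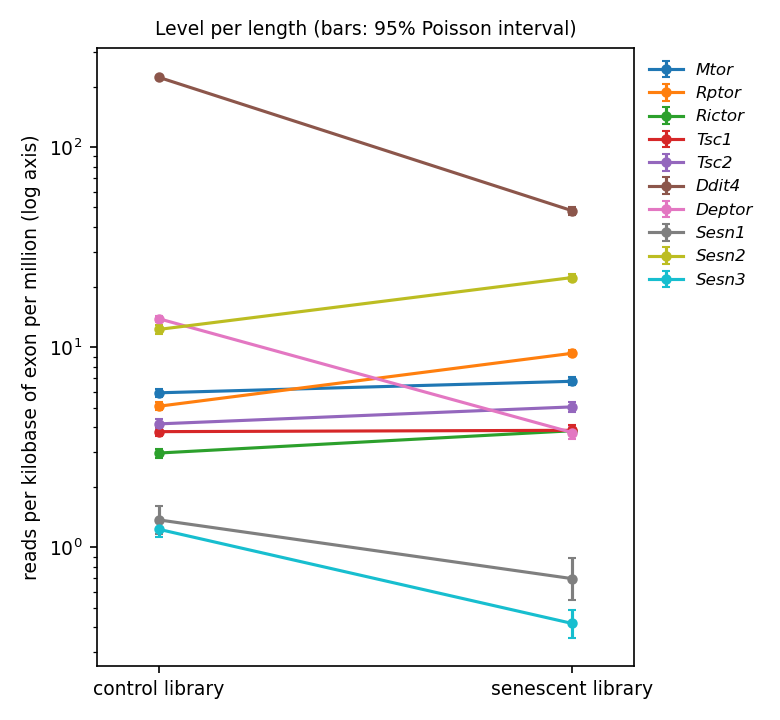
Levels of the 10 genes in RPKM on a log axis, with 1 line per gene from the control to the senescent library and exact Poisson intervals as bars. Ddit4 is first in both libraries, Deptor goes from the second to the eighth place and Sesn2 goes from the third to the second.

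The relays that carry nutrient and energy signals to these complexes had list medians between -0.08 and -0.01, beside -0.02 for all genes tested. Of 12 genes of the Rag GTPases and Ragulator, which seat mTORC1 on the lysosome, 0 passed the threshold and the median was -0.01. Rragc was the highest at 0.91 [0.83, 0.99], and Rragb the lowest at -0.62 [-0.84, -0.41]. The list of GATOR1, GATOR2 and KICSTOR, the nutrient-sensing relay with the sestrin-bound GATOR2, also holds proteins around these complexes. Among its 15 genes, 0 rose and 1 fell, with a median of -0.02, and 1 was higher and 3 were lower past 1. The gene that fell was Rnf152, a ubiquitin ligase for RagA and not a subunit of these complexes. It fell from 352 to 29 reads, by 3.33 on the log2 scale. Rnf152 is in the study's lowered TOR term, so its direction is not independent evidence. Kptn, a KICSTOR subunit, stood at -1.08 and Castor2, a paralog of Castor1, at -1.04. Castor1, an arginine sensor, was the highest at 1.21 [0.69, 1.79] from 43 and 86 reads. None of the 11 genes of AMPK and LKB1 passed the threshold, and their median was -0.08. The kinases Stk11 (LKB1) and Prkaa1, the AMPK alpha 1 subunit, stood at 0.35 and 0.33, and Camkk2 at -0.24.

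The RNA of downstream genes gave no common direction. RNA counts do not measure the phosphorylation of the proteins, through which these complexes act. In Western blots of senescent AML12 cells the study reported more phosphorylated mTOR, p70S6K, AKT and AMPK. Of 17 mTORC1 substrates and translation factors, 0 passed 1.5, while 1 was higher and 2 lower past 1, with a median of 0.13. Eif4ebp1, the translation repressor that mTORC1 phosphorylates, was the highest at 1.08 [1.01, 1.16] from 2250 and 4061 reads. The lysosomal regulator Tfeb was the lowest at -1.39 [-1.66, -1.14] from 491 and 159 reads. Rps6kb1, the S6 kinase, stood at 0.13. Among 8 genes in the list of mTORC2 substrates, 0 rose and 1 fell. The gene that fell was Ndrg1, a target of SGK1 rather than a direct substrate of mTORC2. It had 24227 control and 5630 senescent reads and a log2 ratio of -1.88 [-1.92, -1.83]. Sgk1 stood at 0.09 and Prkca was the highest at 0.51.

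Known inputs to Ddit4 and the sestrins were examined through their messages and targets. Of 10 transcription regulators, 0 passed 1.5, with a median of -0.08. Atf4, which drives Sesn2, was the highest at 1.30 [1.25, 1.35] from 4820 and 10151 reads, and Foxo4, of the family that drives Sesn3, was the lowest at -1.37 [-1.497, -1.249] from 2149 and 708 reads. Trp53 stood at 0.26, Foxo1 at -0.50, Foxo3 at -0.27, the glucocorticoid receptor gene Nr3c1 at 0.08 and Hif1a at 0.21. Whether any of these regulators acted on Ddit4 or the sestrins in these cells was not tested.

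Among 16 ATF4 targets, 3 rose and 1 fell, with a median of 0.36, where 2.71% of all genes tested rose and 5.60% fell. The glutathione-degrading enzyme Chac1 (2.04), the cystine carrier Slc7a11 (1.997) and Stc2 (1.72 [1.39, 2.09]) rose, and Ddit4 fell. Sesn2 is in this list at 0.86, under the threshold. Of 16 p53 targets, 1 rose and 1 fell, with a median of 0.18. Mdm2, which degrades p53, rose by 1.53, and this was under the threshold at 1.43 with total-count scaling and at 1.495 with upper quartiles, while Ddit4 fell.

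Glucocorticoid receptor targets had a median of -0.84 over 13 genes, with 0 higher and 4 lower, Ddit4 itself among them, and 6 lower past 1. The shares over all genes tested were 5.60% lower and 2.71% higher past 1.5, and 9.98% lower past 1. Lcn2 fell by 4.86, Zbtb16 by 2.65 and Dusp1 by 1.63 on the log2 scale, while Fkbp5, the target with the most reads summed over both libraries, stood at 0.41 [0.38, 0.44]. FOXO targets, which hold Sesn1 and Sesn3, had a median of -0.67 over 14 genes, with 1 higher and 2 lower, Sesn3 and Klf15 (-1.62), and Irs2 higher at 1.84. These lists share members, Ddit4 counts in 3 of them, and they were chosen with earlier results of these data known. The study's own TOR term also held Rnf152 and Prex2 (1131 and 171 reads, log2 ratio -2.49), and all 5 of its genes fell, as the study's choice on these samples fixed.

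**Figure D4:**
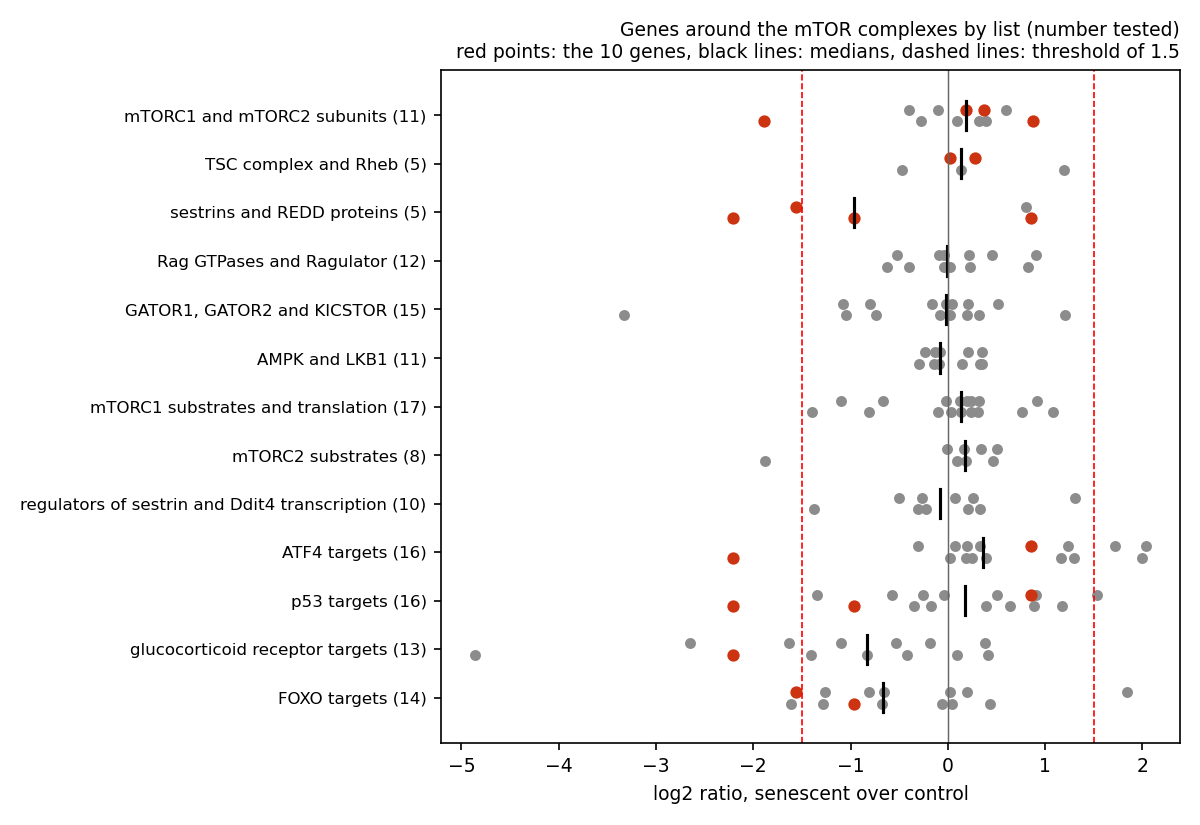
Log2 ratio of every gene tested in 13 lists around the mTOR complexes, with the 10 genes in red, each list's median as a black line and the threshold of 1.5 in either direction dashed. Medians run from -0.97 in the sestrin and REDD list to 0.36 in the ATF4 targets, and the AMPK and Rag lists lie within the dashed lines throughout.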

How the data were processed

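RNA of AML12 cells was poly(A)-selected and copied with random primers, and 1 library per condition was sequenced. The authors deposited un-normalized read counts per Ensembl gene, without replicates. The submitters' processing notes name CASAVA, STAR, DESeq2, edgeR and mm10, while the counting tool, annotation and use of strand are not given in the sources used here. Columns were assigned by the initials of the sample titles (Old, Young). Symbols and positions came from GENCODE M21 (GRCm38) for 34490 of 35275 genes. Genes without a symbol took 0.113% of control and 0.109% of senescent reads.

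Counts were scaled with TMM in edgeR 4.0.16 (R 4.3.3), and for alternatives with DESeq2 1.42.0 size factors, upper quartiles and totals. Python 3.11.15 (scipy 1.17.1, numpy 2.4.6, pandas 2.3.3, Biopython 1.88) gave ratios, Clopper-Pearson intervals and motifs, and matplotlib 3.10.9 the plots. Scripts were tested on simulated data. RPKM used all exon bases, and sestrin identity was taken over coding sequence in place of protein. The precision rests on 28021941 control and 25738075 senescent reads. A count of 0 allows up to 3 reads, or 0.103 CPM in control and 0.121 CPM in senescent cells.

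The listed symbol Kics2 was not matched. The members and lists were chosen with earlier results of these data known. Named were all members and, per list, the genes past the threshold, the highest and lowest ratio with at least 100 reads, and the gene with the most reads over both libraries. All regulators, markers, checks, genes of the study's term and genes overlapping a member could also be named. Castor2, Ddit4l, Kptn, Prkaa1 and Rps6kb1 fall outside this rule and were chosen after their values were seen. Alternatives were scaling, the prior count, the read minimum, the threshold and intervals widened for an assumed variation.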

Additional observations from a re-analysis of the deposited data

How the results depend on the processing

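No member turned direction under another scaling or prior count except Tsc1, and Ddit4 ranged from -2.32 to -2.21, Deptor from -1.99 to -1.88 and Sesn3 from -1.66 to -1.53 on the log2 scale. The median of the 10 genes was -0.00049 with total-count scaling. Over all genes, 259 were higher with a prior count of 5. With at least 100 reads, 395 were lower and 141 higher. At a threshold of 1, 1435 were lower and 732 higher. At a threshold of 2, 460 were lower and 219 higher, and 1 of the 10 genes, Ddit4, was lower. With intervals widened for an assumed coefficient of variation of 0.4, 253 genes were higher and 2 of the 10 genes were lower, without Sesn3. With the longest transcript as length, 6 places in the order of levels differed. Setting the median of all genes to 0 was added after seeing the data.

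No paired analysis was possible because each condition has 1 library, and leaving out a replicate gave no value for the same reason. The depth limits Sesn1 most, at 159 and 69 reads. The spread between cultures is unknown, and intervals cover counting error only.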

Other observations

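Tested genes with any part within 500 kb of a member on the same chromosome were examined for all 10. Among all genes tested, 5.60% were lower and 2.71% higher past the threshold. Within 500 kb of Ddit4 lay 6 tested genes, of which 0 passed the threshold, and their median log2 ratio was 0.40. Within the same distance of Sesn3 lay 8 tested genes, with 0 past the threshold and a median of 0.25. Near Deptor, 1 of 5 tested genes was lower, the overlapping Gm9920, and the median was -0.19. The neighbours of Sesn1, 9 genes, had a median of -0.68 with 0 past the threshold, and 0 of the 26 near Sesn2 passed it. Near Mtor 2 of 16 tested genes were lower, near Tsc2 2 of 42 were lower, and near Rptor 1 of 28 was higher and 1 lower. Of the 5 genes near Rictor and the 11 near Tsc1, 0 passed the threshold.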
